A study of Mus musculus with 6 samples.

Results

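Cadherins are calcium-dependent adhesion proteins that sit in the cell membrane and bind mostly to the same kind of molecule on the next cell. Classical cadherins fall into type I, which hold epithelia such as the neural tube together at adherens junctions, and type II, which are found in restricted groups of neural progenitors and neurons. Protocadherins are the larger, related family: the non-clustered delta-protocadherins are expressed in patterns in the embryonic brain, and the clustered ones are encoded in 3 neighbouring gene arrays called alpha, beta and gamma and are known for the self-recognition of neurites. Cells with different cadherins tend to sort apart, and boundaries of cadherin expression are known to follow boundaries between brain regions.

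The cadherins and protocadherins described here were every probe set annotated to a single mouse symbol of the form Cdh with a number, Pcdh with a number, or Pcdha, Pcdhb or Pcdhg, without the endothelial gene Cdh5. They comprised 99 of 45101 probe sets and 55 of 18193 singly named genes. Of these genes 15 were classical cadherins (28 probe sets), 5 were other cadherins (9 probe sets) and 35 were protocadherins (62 probe sets). The protocadherins were 4 delta-1 genes, 5 delta-2 genes, 3 other non-clustered genes, 22 beta genes and 1 gamma gene. More than 1 probe set was present for 26 genes.

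They were compared between midbrain floor plate, the ventral midline strip of the neural tube that secretes Sonic hedgehog, and the ventral lateral midbrain next to it, in C57BL/6 embryos at embryonic day 10.5. Each region had 3 samples, each made from the tissue of 6 embryos of mixed sex, and 5 ng of total RNA per sample was amplified for 1-colour Affymetrix arrays. No embryo carried a mutation or a treatment per the labels, and the labels do not say whether the pools of the 2 regions shared embryos, so p-values measure the spread between these 6 samples. Both pieces were dissected tissue with several cell types, so fewer cells of a type and less RNA per cell cannot be told apart.

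The deposited value of a probe set is a logarithm centred on that probe set's median over the arrays. A value therefore says how the samples differ and carries no level, so a probe set without a difference may belong to an expressed or a silent gene. Where the regions do not overlap, the innermost value of each is equal in size and opposite in sign by this centring. Neither the base of the logarithm nor its sign is stated, so log2 and higher for more RNA are assumptions here. Of the floor plate markers 10 of 11 genes had a higher probe set in floor plate (limma, adjusted p under 0.05) and none a lower one. Of the ventral lateral markers 10 of 11 had a lower one and none a higher one. Over all genes 4.58% had a higher and 3.25% a lower one. The exceptions were Shh, at 1.76 (adjusted p = 0.0734) and 0.16 (0.56), and the ventral lateral marker Nkx6-1, at 0.71 (0.0856) and so above 0. The floor plate markers averaged 0.90 to 0.98 in floor plate, against -1.49, -0.82 and -1.78 in ventral lateral replicates 1, 2 and 3 on the log2 scale. Ventral lateral replicate 2 thus had the highest values of these markers in its group.

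The probe sets that passed the test all belonged to type II cadherins and delta-2 protocadherins. The type II cadherin gene Cdh6 and the delta-2 genes Pcdh8 and Pcdh18 were higher in floor plate, and the type II genes Cdh8 and Cdh10 and the delta-2 genes Pcdh10 and Pcdh19 were lower (limma, Benjamini-Hochberg adjusted p under 0.05 over 45037 probe sets). These 7 genes had 10 probe sets past the threshold, 5 higher and 5 lower, or 10.1% of the 99, where 4.71% of all probe sets passed. In each direction the background was 2.70% for higher and 2.01% for lower probe sets. By group, 5 of 28 classical, 0 of 9 other cadherin and 5 of 62 protocadherin probe sets passed, against 4.71% of all. The 7 genes were 12.7% of the 55, where 7.83% of all genes had at least 1 probe set past the threshold. The regions did not overlap for 32 of the 99 probe sets, against 22.4% of all probe sets. The median log2 difference (floor plate minus ventral lateral) was -0.01 over the 99 and -0.0040 over all probe sets. The number of lower probe sets depended on single libraries: it was 0 when floor plate replicate 1 was left out, 2 without floor plate replicate 3 in the fit, and 3 without ventral lateral replicate 2 or 3. The number of higher ones was 3 without ventral lateral replicate 3. With 1 value per gene, 8 of 55 members passed on the most variable probe set, where 7.80% of all genes did. On the mean over probe sets 5 passed, where 8.13% did. Both sets included Pcdh20, which is neither a type II cadherin nor a delta-2 protocadherin. Cdh8, Cdh10 and Pcdh10 did not pass on the mean. At least 2-fold differences that passed were found for 5 of the 99 probe sets, against 2.27% of all.

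**Figure D1:**
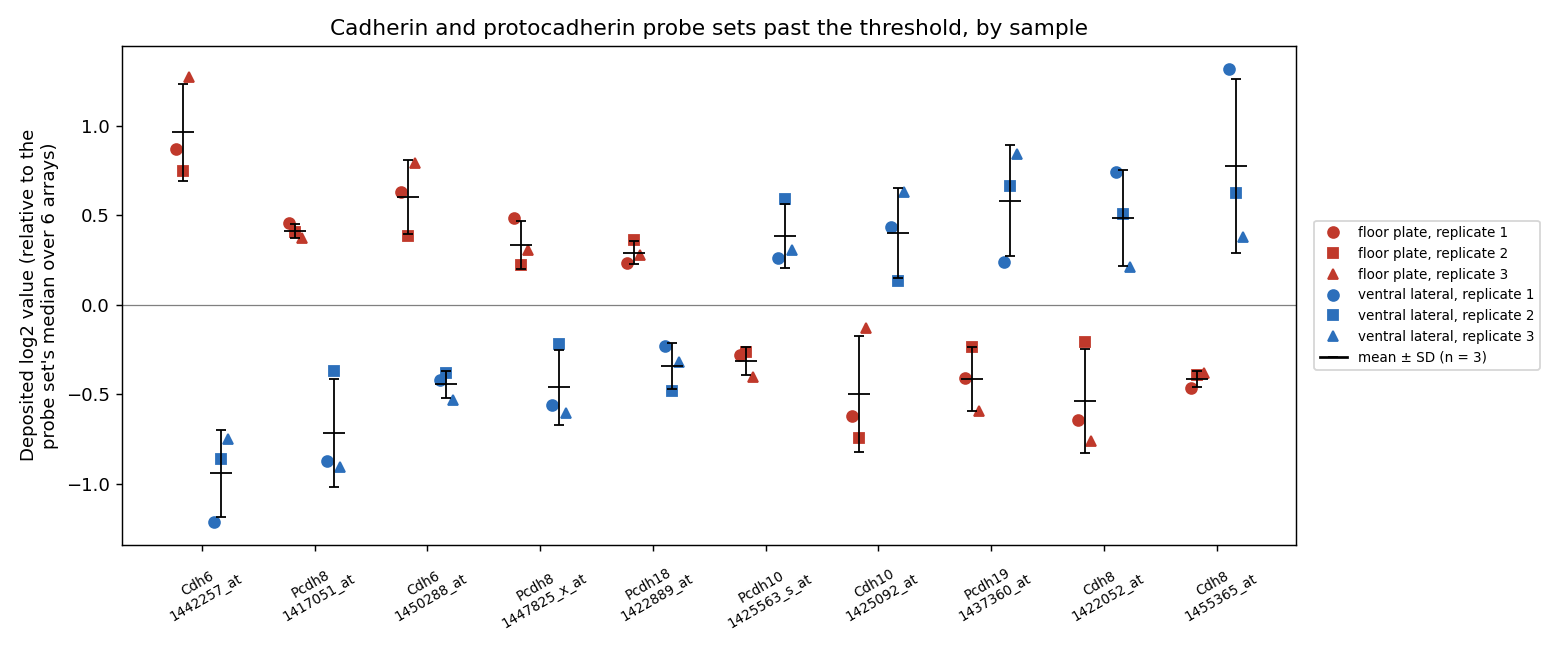
The 10 cadherin and protocadherin probe sets past the threshold (x axis) with the deposited log2 value of each sample relative to the probe set's median over the 6 arrays (y axis). Red symbols are floor plate and blue symbols ventral lateral samples, with a symbol shape per replicate number, and black bars are the mean ± SD (n = 3). The 5 higher probe sets run from Cdh6 at a difference of 1.90 to Pcdh18 at 0.64. The regions overlap in none of the 10, which were chosen by a test on these same values.

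Cdh6 encodes K-cadherin, a type II cadherin known to mark restricted domains of the embryonic neural tube, and had the largest difference of all member probe sets. Its probe set 1442257_at read 0.87, 0.75 and 1.27 in floor plate replicates 1, 2 and 3, against -1.21, -0.86 and -0.75 in ventral lateral replicates 1, 2 and 3. All 3 floor plate samples lay far above all 3 ventral lateral samples. The means were 0.96 ± 0.27 in floor plate, against -0.94 ± 0.24 in ventral lateral tissue (SD, n = 3 each), a log2 difference of 1.90 (SE 0.17) or 3.74-fold (limma adjusted p = 0.0012). The other probe set, 1450288_at, read 0.63, 0.38 and 0.79 in floor plate, against -0.42, -0.38 and -0.53 in ventral lateral samples. It gave a smaller difference of 1.05 (SE 0.12, adjusted p = 0.00355) in the same direction. Both passed in each of the 6 fits that left out 1 sample.

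Pcdh8, also known as paraxial protocadherin or arcadlin, is a delta-2 protocadherin known for a role in tissue separation in the early frog embryo. Its probe set 1417051_at read 0.45, 0.41 and 0.37 in floor plate replicates 1, 2 and 3, against -0.88, -0.37 and -0.91 in ventral lateral replicates 1, 2 and 3. The floor plate samples lay close together, and ventral lateral replicate 2 stood between them and its own group. The means were 0.41 ± 0.04 in floor plate, against -0.72 ± 0.30 in ventral lateral tissue (SD, n = 3 each), a log2 difference of 1.13 (SE 0.15, adjusted p = 0.00619), or 2.19-fold. The probe set passed in every fit that left out 1 sample. The second probe set, 1447825_x_at, whose suffix marks possible cross-hybridisation, gave 0.80 (SE 0.13, adjusted p = 0.0161). It did not pass without floor plate replicate 1 or 3 (adjusted p = 0.0639 and 0.0521), nor without ventral lateral replicate 1 or 3 (0.0683 and 0.0625). Cdh6 and Pcdh8 were the 2 genes of which every probe set passed.

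Pcdh18, another delta-2 protocadherin, was higher by less. Its probe set 1422889_at read 0.23, 0.36 and 0.28 in floor plate replicates 1, 2 and 3, against -0.23, -0.48 and -0.32 in ventral lateral replicates 1, 2 and 3. The regions did not overlap, and the log2 difference was 0.64 (SE 0.10, adjusted p = 0.014), or 1.55-fold. The other 2 probe sets of Pcdh18 also had regions that did not overlap, with differences of 0.44 (adjusted p = 0.119) and 0.34 (0.381) that did not pass. Such separation held for 22.4% of all probe sets. Probe set 1422889_at narrowly failed to pass without floor plate replicate 2 (adjusted p = 0.0516), or without ventral lateral replicate 2 (0.0502) or 3 (0.0509).

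Cdh8 is a type II cadherin known from subsets of neurons and from divisions of the embryonic brain. Its probe set 1455365_at read -0.47, -0.40 and -0.38 in floor plate replicates 1, 2 and 3, against 1.32, 0.62 and 0.38 in ventral lateral replicates 1, 2 and 3. The floor plate samples were tightly grouped, and ventral lateral replicate 1 was the highest sample. The means were -0.41 ± 0.05 in floor plate, against 0.77 ± 0.49 in ventral lateral tissue (SD, n = 3 each), a log2 difference of -1.19 (SE 0.22, adjusted p = 0.0249). It was -0.92 without ventral lateral replicate 1. The probe set 1422052_at read -0.64, -0.21 and -0.76 in floor plate, against 0.74, 0.51 and 0.21 in ventral lateral samples, with a difference of -1.02 (SE 0.19, adjusted p = 0.0221). The third probe set of Cdh8, 1441690_at, did not differ beyond its error (0.14, 95% interval -0.32 to 0.60). The first probe set no longer passed when any 1 floor plate sample was left out (adjusted p = 0.0979, 0.0675 and 0.0747 without replicates 1, 2 and 3). The second did not pass without floor plate replicate 1 (0.0916) or 3 (0.0743), nor without ventral lateral replicate 1 (0.0796) or 2 (0.0663). Averaged over the 3 probe sets of the gene, the difference was -0.69 (adjusted p = 0.0591).

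Cdh10, a further type II cadherin of the nervous system, passed on 1 of 4 probe sets. The probe set 1425092_at read -0.62, -0.74 and -0.13 in floor plate replicates 1, 2 and 3, against 0.43, 0.13 and 0.63 in ventral lateral replicates 1, 2 and 3. Floor plate replicate 3 and ventral lateral replicate 2 lay nearest to each other. The log2 difference was -0.90 (SE 0.19, adjusted p = 0.0424), with 1.86-fold lower values in floor plate. The other probe sets gave -0.39 (adjusted p = 0.0909), -0.05 (0.948) and 0.11 (0.794). The call was lost without floor plate replicate 1 or 2 (adjusted p = 0.143 and 0.112), in the fits without ventral lateral replicate 1 or 3 (0.139 and 0.131), after quantile normalization (0.0548) and on the mean of the 4 probe sets (-0.31, adjusted p = 0.138).

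Pcdh19, the X-linked delta-2 protocadherin whose human counterpart is mutated in an epilepsy of girls, was lower on 1 of 3 probe sets. The probe set 1437360_at read -0.41, -0.24 and -0.59 in floor plate replicates 1, 2 and 3, against 0.24, 0.66 and 0.84 in ventral lateral replicates 1, 2 and 3. The regions were separate, with a log2 difference of -0.99 (SE 0.17, adjusted p = 0.018), or 1.99-fold. The other probe sets were at -0.43 and -0.34 and did not pass (adjusted p = 0.354 and 0.451). The call was lost without floor plate replicate 1 or 3 (0.0721 and 0.0643), and likewise without ventral lateral replicate 2 or 3 (0.0602 and 0.0572).

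Pcdh10, also called OL-protocadherin and known from axon pathways of the forebrain, had 6 probe sets, the most of any member. Its probe set 1425563_s_at read -0.28, -0.26 and -0.41 in floor plate replicates 1, 2 and 3, against 0.26, 0.59 and 0.30 in ventral lateral replicates 1, 2 and 3. These regions were separate, with a log2 difference of -0.70 (SE 0.12, adjusted p = 0.0155), or 1.63-fold. Of the other 5 probe sets 4 were below 0 (-0.80, -0.47, -0.41 and -0.26) and 1 above (0.06), and none of them passed (adjusted p of 0.144 to 0.877). The difference was -0.43 on the mean of the 6 (adjusted p = 0.0557), and the call was lost without floor plate replicate 1 (0.0542) or 3 (0.0589). Without probe sets that can match several transcripts, Pcdh10 had no call.

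The promoters of 2 genes with higher and 2 with lower RNA in floor plate are shown because these had the largest differences in each direction among the genes past the threshold. Each is the stretch of 250 bases before the gene's start, 5′ to 3′ on the gene's strand, from RefSeq on GRCm38.p6, which was not used to make the deposited values. Capitals mark a TATA box (TATAAA), GC boxes (GGGCGG) and CCAAT boxes (CCAAT), each searched on both strands. Cdh6 lies at chr15:13173676-13173925, Pcdh8 at chr14:79771313-79771562, Cdh8 at chr8:99416472-99416721 and Pcdh19 at chrX:133688994-133689243, all on the minus strand.
Cdh6: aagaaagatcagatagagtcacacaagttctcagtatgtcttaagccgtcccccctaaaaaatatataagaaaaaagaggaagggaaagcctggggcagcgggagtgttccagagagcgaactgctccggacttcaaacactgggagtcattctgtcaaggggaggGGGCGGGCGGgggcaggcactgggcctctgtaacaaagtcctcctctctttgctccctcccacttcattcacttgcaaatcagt
Pcdh8: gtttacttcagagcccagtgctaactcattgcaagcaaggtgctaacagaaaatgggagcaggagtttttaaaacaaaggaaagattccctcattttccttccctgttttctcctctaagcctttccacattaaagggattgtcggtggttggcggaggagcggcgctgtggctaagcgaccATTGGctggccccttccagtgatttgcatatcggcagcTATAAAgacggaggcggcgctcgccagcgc
Cdh8: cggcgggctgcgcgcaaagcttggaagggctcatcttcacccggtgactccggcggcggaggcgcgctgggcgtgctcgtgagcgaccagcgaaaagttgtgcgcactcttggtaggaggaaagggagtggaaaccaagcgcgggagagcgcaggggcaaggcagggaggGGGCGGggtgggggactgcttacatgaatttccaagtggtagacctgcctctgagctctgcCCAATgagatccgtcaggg
Pcdh19: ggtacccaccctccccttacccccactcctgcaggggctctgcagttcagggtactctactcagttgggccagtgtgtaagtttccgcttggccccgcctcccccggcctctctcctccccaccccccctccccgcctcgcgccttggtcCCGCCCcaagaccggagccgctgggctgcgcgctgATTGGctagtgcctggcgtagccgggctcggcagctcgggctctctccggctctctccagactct

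Of these windows, that of Pcdh8 held a TATA box, 30 to 25 bases before the start, and a CCAAT box on the other strand. Cdh6 held 2 GC boxes that overlap each other, and Cdh8 and Pcdh19 each held a GC box and a CCAAT box. GC content was 51.2% for Cdh6 and for Pcdh8, 64.4% for Cdh8 and 69.2% for Pcdh19, against a median of 52.4% over all windows of that length. Among all 32851 windows 12.4% held a TATA box, 32.7% a GC box and 33.8% a CCAAT box. The windows of the 7 genes past the threshold held none of the letters TNTTTAC, a core of forkhead sites, TAATTA, a homeodomain core, CAGGTG, an E-box, or TGGGTGGTC, a Gli site. Over all windows these letters were present in 10.9%, 4.84%, 17.2% and 0.225%. A window was found for 20 of the 55 genes.

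Type I classical cadherins form the adherens junctions of the neuroepithelium, and 0 of their 9 probe sets passed (limma, 2 at an unadjusted p under 0.05, where 16.5% of all probe sets were). Cdh2, N-cadherin, the main cadherin of neural progenitors, read 0.08, 0.18 and 0.12 on probe set 1449244_at in floor plate replicates 1, 2 and 3, against -0.08, -0.11 and -0.16 in ventral lateral replicates 1, 2 and 3. The regions did not overlap, but the difference of 0.24 had an adjusted p of 0.216 and a 95% interval of 0.04 to 0.45. Its other probe set gave 0.16 (-0.13 to 0.45). A change of Cdh2 as large as that of Cdh6 thus lay outside both intervals. Cdh4, R-cadherin of the retina and brain, read -0.11, -0.17 and -0.18 on 1456397_at in floor plate replicates 1, 2 and 3, against 0.76, 0.11 and 0.11 in ventral lateral replicates 1, 2 and 3. Ventral lateral replicate 1 was far above the other samples, and the difference of -0.48 did not pass (95% interval -0.90 to -0.06, adjusted p = 0.234). The other probe sets of Cdh4 were at -0.40 and 0.13. Cdh1, E-cadherin of most other epithelia, read 0.05, -0.04 and 0.04 in floor plate, against 0.42, -0.04 and -0.29 in ventral lateral samples. The ventral lateral samples spanned the floor plate ones, with a difference of -0.01 (95% interval -0.42 to 0.39). Cdh3 and Cdh15, the placental and muscle cadherins, lay between -0.23 and 0.18 on 3 probe sets and none passed.

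Type II cadherins had 5 of 19 probe sets past the threshold, against 4.71% of all probe sets, with 2 higher (Cdh6) and 3 lower (Cdh8 and Cdh10). They lay in 3 of 10 genes, where 7.83% of all genes had at least 1 probe set past the threshold. On the mean over a gene's probe sets only Cdh6 passed among type II genes, where 8.13% of all genes did. The median absolute log2 difference of type II probe sets was 0.38, against 0.18 for type I and 0.13 over all probe sets. Cdh11, a cadherin common in mesenchyme and also found in the brain, read 0.11, 0.41 and 0.30 on 1435120_at in floor plate replicates 1, 2 and 3, against -0.11, -0.11 and -0.69 in ventral lateral replicates 1, 2 and 3. It was separate between regions at a difference of 0.58 (95% interval 0.17 to 0.98) without passing (adjusted p = 0.135), and its other probe set gave 0.44 (0.236). Cdh7, known from neural crest and spinal cord in the chick, had 3 probe sets without one direction. On 1460045_at it read -0.68, 0.51 and -0.89 in floor plate replicates 1, 2 and 3, against 0.06, 0.07 and -0.06 in ventral lateral replicates 1, 2 and 3. Floor plate replicate 2 stood apart from the other 2 there: the difference was -0.38 (adjusted p = 0.662) with it and -0.81 (0.0181) without it. Leaving out any other sample gave adjusted p of 0.711 to 0.926. The other probe sets of Cdh7 gave 0.31 and 0.36. Cdh22 was at -0.56 (95% interval -1.17 to 0.05, adjusted p = 0.345) and passed without ventral lateral replicate 1 (-0.89, adjusted p = 0.0133), the sample of its group with a low value of -0.16 against 0.79 and 0.90. Cdh22 did not pass in the other fits that left out 1 sample (adjusted p of 0.416 to 0.607). The single probe sets of Cdh9, Cdh18, Cdh19 and Cdh20 lay between -0.08 and 0.22, and none passed.

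**Figure D2:**
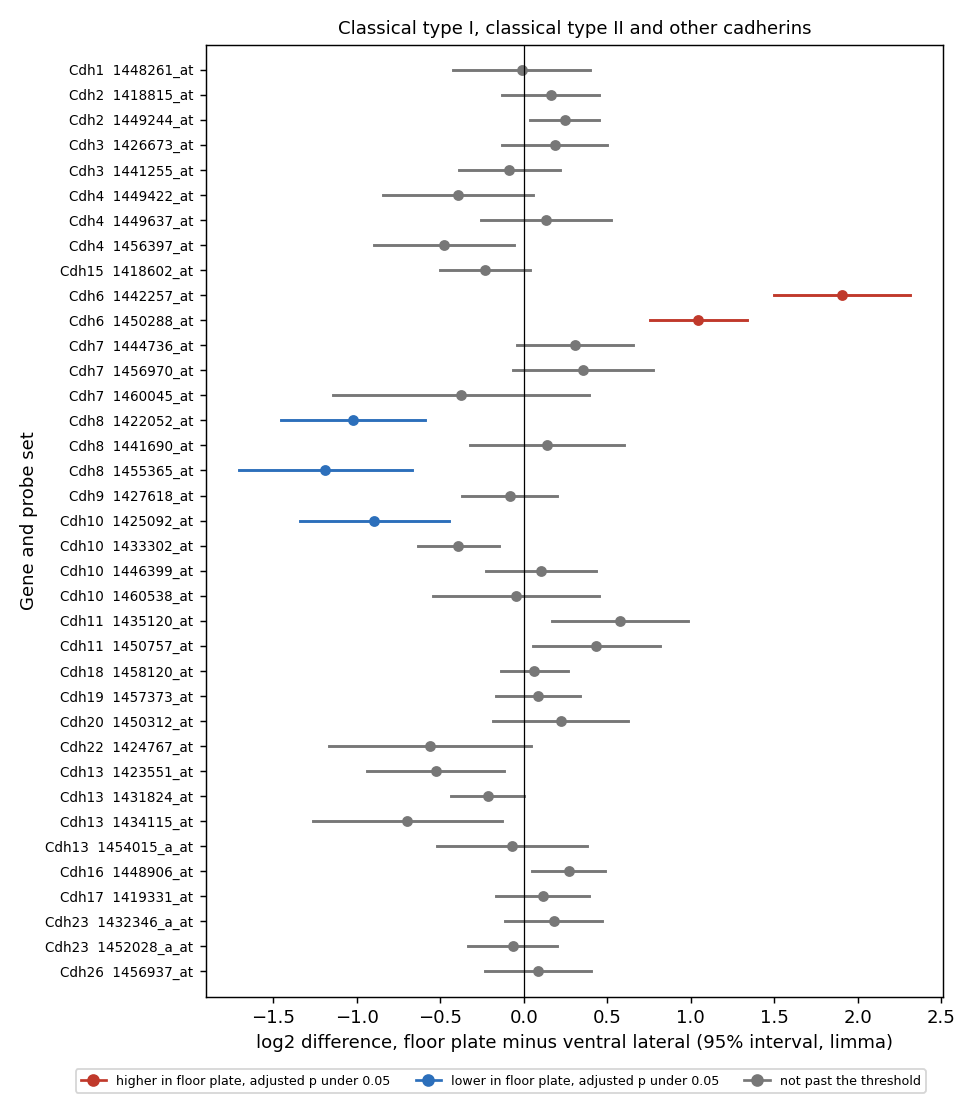
The log2 difference between floor plate and ventral lateral samples (x axis) with its 95% interval from limma for each of the 37 probe sets of classical and other cadherins (y axis). Red marks higher, blue lower and grey not past the threshold. Cdh6 lies farthest right at 1.90 and 1.05, the blue probe sets of Cdh8 and Cdh10 lie on the left, and all type I probe sets are grey.

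The other cadherins had 0 of 9 probe sets past the threshold (limma, 3 at an unadjusted p under 0.05, against 16.5% of all). Cdh13, T-cadherin, which is held in the membrane by a lipid anchor and has no cytoplasmic tail, read -0.30, -0.48 and -0.03 on 1434115_at in floor plate replicates 1, 2 and 3, against 0.98, 0.03 and 0.28 in ventral lateral replicates 1, 2 and 3. Ventral lateral replicate 1 was again the highest sample, and the difference of -0.70 did not pass (95% interval -1.26 to -0.13, adjusted p = 0.195). All 4 probe sets of Cdh13 were below 0, at -0.70, -0.53, -0.22 and -0.07. For the first 3 the regions did not overlap, which held for 22.4% of all probe sets. Cdh16, a kidney cadherin, was at 0.27, and Cdh17, Cdh23 and Cdh26 lay between -0.07 and 0.18.

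Delta-2 protocadherins had 5 of 16 probe sets past the threshold, against 4.71% of all probe sets, and the regions did not overlap for 9 of the 16, against 22.4%. These 5 lay in 4 of 5 genes, where 7.83% of all genes had at least 1 probe set past the threshold. A gene with more probe sets has more chances to pass, and Pcdh10 had 6. On the mean over a gene's probe sets Pcdh8, Pcdh18 and Pcdh19 passed, where 8.13% of all genes did. Pcdh10 (adjusted p = 0.0557) and Pcdh17 (0.0953) did not pass on it. The median absolute difference of the 16 probe sets was 0.45. Pcdh17, the member without a call and known from basal ganglia circuits, read -0.83, -0.15 and -0.72 on 1453070_at in floor plate replicates 1, 2 and 3, against 0.74, 0.20 and 0.15 in ventral lateral replicates 1, 2 and 3. The regions were separate, with floor plate replicate 2 and ventral lateral replicate 3 closest to each other. The difference of -0.93 (95% interval -1.45 to -0.42) missed the threshold (adjusted p = 0.0614), and passed without floor plate replicate 2 (-1.14, adjusted p = 0.0285) and when only this probe set, the more variable of the gene's 2, was tested (0.0425). This probe set did not pass in the remaining fits that left out 1 sample (adjusted p of 0.0975 to 0.184). The other probe set was at -0.23 (adjusted p = 0.582).

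The delta-1 protocadherins had 0 of 9 probe sets past the threshold (limma, 2 at an unadjusted p under 0.05, against 16.5% of all). Pcdh7, known as NF-protocadherin in the frog, read -0.03, 0.26 and 0.06 on 1449249_at in floor plate replicates 1, 2 and 3, against -0.35, 0.03 and -0.38 in ventral lateral replicates 1, 2 and 3. The regions overlapped, at a difference of 0.33 (95% interval 0.0039 to 0.66, adjusted p = 0.296), and its other probe sets gave 0.25 and 0.01. Pcdh9 read 0.19, 0.20 and -0.19 on 1442659_at in floor plate replicates 1, 2 and 3, against 0.24, -0.22 and -0.54 in ventral lateral replicates 1, 2 and 3. The regions again overlapped (0.24, adjusted p = 0.646), and all 3 of its probe sets were above 0. Pcdh11x had the second lowest difference of all members on 1436449_at, -1.18 with a 95% interval of -1.92 to -0.45, and did not pass (adjusted p = 0.0909). It read -1.05, -0.06 and -0.93 in floor plate replicates 1, 2 and 3, against 1.02, 0.43 and 0.06 in ventral lateral replicates 1, 2 and 3. Floor plate replicate 2 was close to ventral lateral replicate 3, and without it the difference was -1.49 (adjusted p = 0.0318). This probe set did not pass in the other fits that left out 1 sample (adjusted p of 0.0884 to 0.243). The other probe set of Pcdh11x was at -0.06. Pcdh1 had 1 probe set, at 0.22.

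Of the other non-clustered protocadherins 0 of 8 probe sets passed (limma, 2 at an unadjusted p under 0.05, against 16.5% of all). Pcdh20 came nearest on 1424701_at, with -1.03, -0.85 and -0.14 in floor plate replicates 1, 2 and 3, against 0.20, 0.30 and 0.14 in ventral lateral replicates 1, 2 and 3. Floor plate replicate 3 lay close to the ventral lateral samples. The difference was -0.89 (95% interval -1.40 to -0.38, adjusted p = 0.068), and it was -1.16 (adjusted p = 0.00503) without that sample. It did not pass in the other fits that left out 1 sample (adjusted p of 0.149 to 0.183). With 1 value per gene Pcdh20 passed, at -0.89 on its more variable probe set (0.0478) and at -0.56 on the mean of both (0.0332). Pcdh12, an endothelial protocadherin, and Pcdh15, a component of the tip link of hair cells, lay between -0.19 and 0.34 on 6 probe sets.

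**Figure D3:**
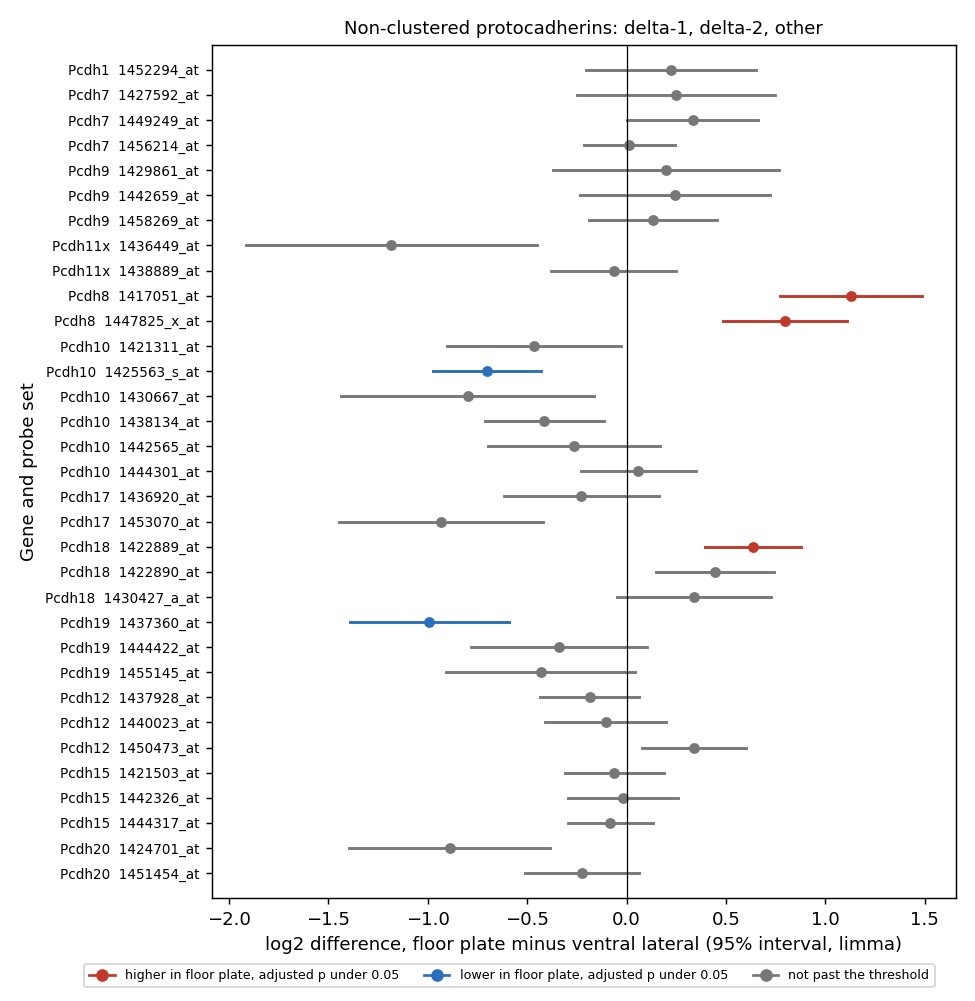
The log2 difference between floor plate and ventral lateral samples (x axis) with its 95% interval from limma for each of the 33 probe sets of non-clustered protocadherins (y axis). Pcdh8 and Pcdh18 (red) lie above 0 and single probe sets of Pcdh10 and Pcdh19 (blue) below it, while Pcdh11x, Pcdh17 and Pcdh20 have probe sets as low as -1.18, -0.93 and -0.89 that did not pass (grey).

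Among the clustered protocadherins all 22 beta genes were measured by 28 probe sets, and 0 passed (limma, 4 at an unadjusted p under 0.05, below the 16.5% of all probe sets). Their differences ran from -0.28 to 0.46 with 16 above 0 and 12 below, and the median absolute difference was 0.12, the lowest of the member families and close to the 0.13 of all probe sets. The regions did not overlap for 4 of the 28, below the 22.4% of all probe sets, and these 4 were higher in floor plate. Pcdhb22 had the highest difference, 0.46 (95% interval 0.05 to 0.87, adjusted p = 0.248), with -0.02, 0.68 and 0.50 in floor plate replicates 1, 2 and 3, against 0.02, -0.13 and -0.08 in ventral lateral replicates 1, 2 and 3. It passed without floor plate replicate 1, the low one of its group (0.66, adjusted p = 0.0375). The other fits that left out 1 sample gave adjusted p of 0.374 to 0.448. Pcdhb21 (0.45), Pcdhb10 (0.37) and Pcdhb4 (0.35) followed and did not pass. The 1 gamma probe set, of Pcdhgc4, was at -0.15 (adjusted p = 0.717). Beta genes are encoded by single exons that are alike in sequence, so a probe set may also detect a neighbour.

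**Figure D4:**
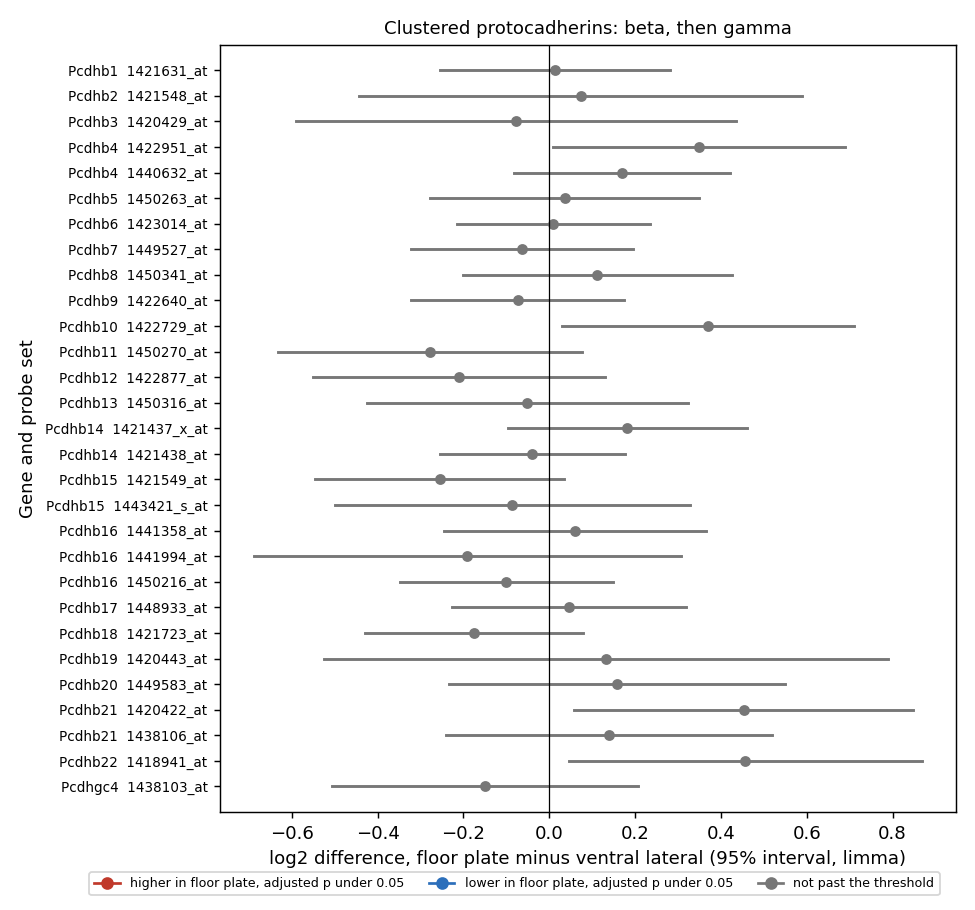
The log2 difference between floor plate and ventral lateral samples (x axis) with its 95% interval from limma for the 28 beta and 1 gamma protocadherin probe sets (y axis). All are grey, none having passed, and the beta differences stay between -0.28 and 0.46.

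Genes that work with cadherins were taken as lists beside the members and counted when at least 1 of their probe sets passed, which over all genes was 4.58% for higher and 3.25% for lower. Of 20 measured junction partners, floor plate had 4 higher and 1 lower, and the median difference over their 54 probe sets was 0.01. Nectin3, an adhesion molecule that joins the adherens junction through afadin, was higher on all 6 of its probe sets, by 1.05 to 1.49 on the log2 scale (adjusted p of 0.000846 to 0.00582). Plekha7, which links the junction to microtubules, was higher on 2 of 3 probe sets (0.85, adjusted p = 0.0103, and 0.78, adjusted p = 0.00424). Shroom3, a driver of apical constriction, was higher on 1 of 5 (0.73, adjusted p = 0.0398), while the others gave 0.66, 0.63, 0.52 and -0.17 (adjusted p of 0.0731 to 0.556). The p120 relative Pkp4 was higher on 1 of 2 (0.48, adjusted p = 0.0374), and the other gave 0.38 (0.0593). Ctnnd2, the neuronal delta-catenin, was lower on 1 of 2 (-0.73, adjusted p = 0.0201), and the other gave -0.56 (0.115). Beta-catenin (Ctnnb1), alpha-catenin (Ctnna1) and p120 (Ctnnd1) had no probe set past the threshold, with differences of -0.20 to 0.16 over 10 probe sets. Another alpha-catenin gene, Ctnna2, was at -0.48 without passing (adjusted p = 0.0607), and its regions did not overlap. Of 22 large and desmosomal members of the cadherin superfamily 3 were higher and none lower. The calsyntenin gene Clstn2 was higher on both probe sets, by 1.96 (adjusted p = 0.00033) and 1.71 (0.000663), the desmosomal Dsg2 on 1 of 6 (0.89, adjusted p = 0.0127) and the giant cadherin Fat4 on 1 of 2 (0.89, adjusted p = 0.0132). The probe sets of Dsg2 and Fat4 that did not pass lay between 0.10 and 0.40. Of 16 regulators known from switches of cadherin expression, transcription factors and the splicing regulators Esrp1 and Esrp2, 3 were higher and none lower, namely Twist1 (2.11, adjusted p = 0.00724), the grainyhead factor Grhl1 (2.09, adjusted p = 0.000933) and Snai2 on 1 of 2 probe sets (0.85, adjusted p = 0.036). The higher probe set of Snai2 has the suffix (_x_at) of possible cross-hybridisation, and the other gave 0.31 (adjusted p = 0.191). Zeb1 and Zeb2, which repress E-cadherin, had no probe set past the threshold.

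Markers of other cell types were read in the same samples, since several cadherins are known from neurons, mesenchyme or neural crest. Of 12 pan-neuronal genes 3 were lower in floor plate (Ina, Nefl and Stmn2) and none higher. Of the list's 26 probe sets 14 had an unadjusted p under 0.05 (limma), against 16.5% of all, and the median log2 difference was -0.40. The list mean ran from -0.24 to -0.04 in floor plate, against -0.07 to 0.34 in ventral lateral samples. The regions overlapped through floor plate replicate 2 (-0.04) and ventral lateral replicate 3 (-0.07). Ventral lateral replicate 1 had the highest neuronal mean. It was the highest of its group on 41.4% of the member probe sets, against 35.0% of all. Among the lower probe sets past the threshold it was the highest on both of Cdh8 and not on those of Cdh10, Pcdh10 and Pcdh19. On the probe sets of Cdh10, Pcdh10 and Pcdh19 that did not pass, it was the highest on some and not on others. The part of neurons in the lower values of Cdh8, Cdh10, Pcdh10 and Pcdh19 was not tested. Of 12 mesenchyme genes Twist1 was higher and none lower, and the list mean overlapped, at -0.30 to 0.31 in floor plate, against -0.34 to 0.24 in ventral lateral samples. Of 5 neural crest genes 2 were lower, Tfap2a on all 3 of its probe sets (down to -3.95) and Ednrb on 1 of 3. The list means were -0.38 to -0.35 in floor plate, against 0.38 to 0.72 in ventral lateral samples. These means weigh Tfap2a heavily, and the median log2 difference over the list's 12 probe sets was -0.22. Endothelial markers had Cldn5 lower among 10 genes, and red cell, macrophage and surface epithelium markers had no gene past the threshold (limma, 1 of 14, 2 of 11 and 3 of 17 probe sets at an unadjusted p under 0.05, against 16.5% of all), with overlapping means. Because the values carry no level, no marker can be called absent.

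**Figure D5:**
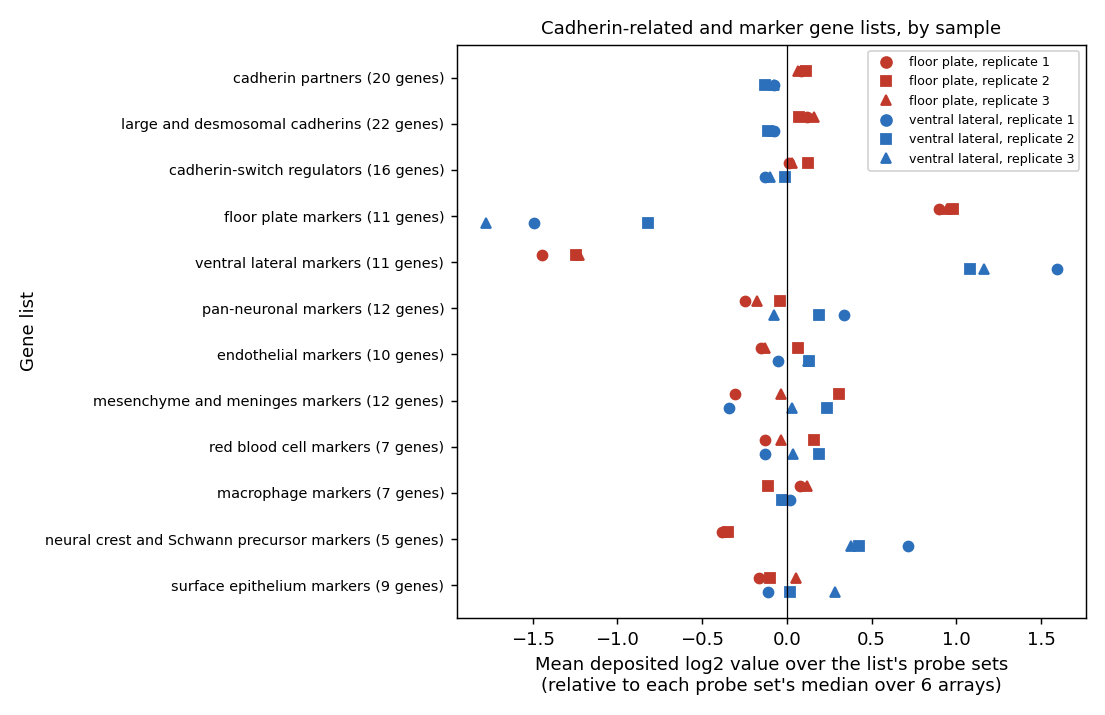
The mean deposited log2 value over a list's probe sets in each sample, relative to each probe set's median over the 6 arrays (x axis), for each gene list (y axis). Red symbols are floor plate and blue symbols ventral lateral samples, with a symbol shape per replicate number. Floor plate and ventral lateral markers lie far apart between regions, and the mesenchyme, red blood cell and macrophage means overlap.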

How the data were processed

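Arrays of 6 samples (3 floor plate, 3 ventral lateral) were read from 1 deposited table. Per the submitters' processing notes, the authors made the values with RMA (in general a method of background correction, quantile normalization and probe summary; no version is named). These deposited log2 values are centred: per probe set, the median of the 6 arrays was in 100% of cases within 1e-05 of 0. The centring step, log base and direction are not stated. Array medians lay between -0.0030 and 0.0045.

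Probe sets were named with GEO's platform annotation (34945 with 1 symbol, 932 with several, 9160 with none, 64 controls). Each of the 45037 non-control probe sets was fitted on its own with lmFit and eBayes of limma 3.58.1 (R 4.3.3), floor plate minus ventral lateral, with Benjamini-Hochberg adjustment over all of them at 0.05. A gene's probe sets were not reduced to 1, since choosing by variance favours the one that differs. On simulated data of the same size the fit recovered 12% of probe sets changed by a log2 of 0.5, 70% at 1 and 92% at 2. It also called 6 unchanged probe sets. Only 50 probe sets were changed per size, a smaller share than passed in the data, so these recoveries do not carry over directly. Values per sample were given for each gene with a probe set past the threshold and for a fixed set of cadherin genes. Members, lists and tests were chosen with earlier results of these data known. Genes without a singly named probe set were not analysed here. Alternatives were quantile normalization, centring of arrays, 1 value per gene (most variable probe set or mean), dropping IDs with the suffix _x_at or _s_at, the replicate number as a block, and leaving out each sample. Tables and plots were made in Python 3.11.15 (pandas 2.3.3, matplotlib 3.10.9).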

Additional observations from a re-analysis of the deposited data

How the results depend on the processing

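The 5 higher and 5 lower member probe sets stood at 5 and 5 after centring the arrays and with the replicate number as a block (replicate block), at 5 and 4 after quantile normalization and at 4 and 4 of 95 without _x_at and _s_at probe sets. With 1 value per gene (55 members) there were 3 higher and 5 lower on the most variable probe set, and 3 higher and 2 lower when the probe sets of a gene were averaged. Leaving out 1 sample gave 3 to 5 higher and 0 to 6 lower members, and 753 to 991 higher and 510 to 743 lower probe sets over all, against 1218 and 903, with fewer samples fitted. None of the 10 changed direction in the alternatives that tested it. Pcdh10 1425563_s_at and Pcdh8 1447825_x_at were not tested without _x_at and _s_at probe sets, and these 2, Cdh6 1450288_at and Cdh8 1422052_at were not the most variable probe set of their gene. Deviations of same-numbered samples from their group means correlated at 0.0096, 0.12 and 0.11 for numbers 1, 2 and 3. The best-correlated partner in the other region had the same number for numbers 2 and 3, and was number 3 for number 1. Mesenchyme and red cell list means were lowest in replicate 1 and highest in replicate 2 of both regions. Pan-neuronal means were lowest in floor plate replicate 1 and in ventral lateral replicate 3. Whether same-numbered samples shared embryos or a dissection was not tested. The main fit did not pair the numbers, and with the block 1062 probe sets were higher and 842 lower. The number of arrays limits the precision: the median SE of a member's difference was 0.15 on the log2 scale.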

Other observations

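The alpha protocadherins share their last exons, and 6 probe sets annotated to several Pcdha symbols were therefore not among the members. None passed (limma, 1 at an unadjusted p under 0.05, against 16.5% of all probe sets), with log2 differences of -0.52 to 0.06. The lowest, 1451769_s_at, read -0.33, -0.07 and -0.13 in floor plate replicates 1, 2 and 3, against 0.57, 0.41 and 0.07 in ventral lateral replicates 1, 2 and 3 (difference -0.52, adjusted p = 0.113), so the regions did not overlap for it.

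Of the 26 member genes with more than 1 probe set, 16 had all probe sets on the same side of 0. All 7 genes past the threshold had more than 1 probe set, and in 2 of them every probe set passed. A gene with more probe sets has more chances to pass. These counts were not taken over all genes, so they cannot be set against a background share.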
